A study of Mus musculus with 6 samples.

Results

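The Fc receptors are the cell-surface proteins through which macrophages (MPs) bind the constant part of antibodies. The set described here is 6 genes, Fcgr1, Fcgr3, Fcgr4, Fcgr2b, Fcer1g and Fcgrt, chosen by symbol, and all 6 were among the 13008 genes of the table. None of the 6 differed between Control and Cripto KO MPs at an adjusted p under 0.05 (limma, Benjamini-Hochberg over all genes), a mark reached by 0.131% of all genes. Fcgr3, the receptor CD16, was the member with the smallest p. Its estimate was 1.19-fold higher in Control (95% interval 1.05 to 1.36, 3 libraries in each group, limma adjusted p = 0.494), and the Control and Cripto KO values did not overlap. In this fit, taking each of the 6 genes separately, the interval held no value beyond 1.40-fold higher in Control or 1.16-fold higher in Cripto KO. Other fits gave wider intervals. For Fcgr4 it ran from -0.34 to 0.62 in log2(Control/Cripto KO) when the variance trend of limma was left out.

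Cripto is a small membrane-anchored co-receptor that modulates signaling by ligands of the TGFβ family, and the comparison asks which transcripts of muscle MPs differ when myeloid cells lack it. MPs were sorted by FACS as F4/80+/Ly6C low cells from limb muscle of C57BL/6J mice aged 3 months and labelled male, at day 5 after cardiotoxin injury. The 3 Control samples are labelled wild type, and the study describes them as Tg:LysMCre::R26mTmG, with sorting of GFP+ cells. The 3 Cripto KO samples are labelled Tg:LysMCre::Cripto-/- and described as Tg:LysMCre::R26mTmG::Cripto fl/fl. In that description both groups carry LysMCre, which drives Cre in the myeloid lineage, so a Cripto KO sample can hold cells in which the gene was not recombined. The study reports, by genomic PCR at an earlier day, more complete deletion in sorted GFP+ cells than in all MPs. It also reports less Cripto protein in sorted GFP+ MPs at day 5. Tdgf1, the gene of Cripto, was not analysed here. Before the sort, cells of both groups were incubated with an antibody to CD16 and CD32, the products of Fcgr3 and Fcgr2b. RNA was measured in these data, and no receptor on the cell surface.

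Classical Fcγ receptors work as a balance between activating and inhibitory chains. Fcgr1 (CD64, the high-affinity IgG receptor), Fcgr3 (a low-affinity receptor for IgG complexes) and Fcgr4 (a receptor of intermediate affinity for IgG2a and IgG2b) need the common γ chain encoded by Fcer1g, whose cytoplasmic ITAM recruits the kinase Syk and starts phagocytosis and the oxidative burst. Fcgr2b (CD32) carries an inhibitory motif that recruits the phosphatase SHIP, encoded by Inpp5d. Fcgrt encodes the heavy chain of the neonatal receptor FcRn, which pairs with β2-microglobulin inside endosomes and returns IgG and albumin to the cell surface.

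Fcgr2b, Fcgr4, Fcgr3 and Fcer1g lie together on chromosome 1 of GRCm38, with Fcgr2b at chr1:170958617-170976547 on the minus strand, Fcgr4 at chr1:171018920-171029761 on the plus strand, Fcgr3 at chr1:171051174-171064935 on the minus strand and Fcer1g at chr1:171229572-171234365 on the minus strand. Fcgr1 lies at chr3:96282909-96293969 and Fcgrt at chr7:45092990-45103851, both on the minus strand. Fcgr2b and Fcgr3 encode extracellular parts that are nearly the same in sequence. Their coding sequences were identical at 86.7% of 782 aligned bases, at 98.0% of the bases of exon 4 of Fcgr2b, and at 65.8% and 68.2% of those of exons 5 and 6. The windows below are 150 bases of exon 4 of each gene, at chr1:170966523-170966672 and chr1:171054016-171054165, read on the minus strand, and capitals mark the 2 bases that differ. They are shown because a sequenced fragment from this stretch can be assigned to either gene.
Fcgr2b: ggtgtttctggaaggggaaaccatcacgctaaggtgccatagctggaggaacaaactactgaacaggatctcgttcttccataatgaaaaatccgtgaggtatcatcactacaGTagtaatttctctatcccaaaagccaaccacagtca
Fcgr3: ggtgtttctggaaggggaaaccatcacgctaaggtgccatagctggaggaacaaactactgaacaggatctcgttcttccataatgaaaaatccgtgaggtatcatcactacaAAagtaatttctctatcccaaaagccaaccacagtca
Of all 31-base words in the principal transcript of Fcgr3, 17.7% also occurred in a transcript of Fcgr2b. Fcgr2b shared 9.67% of its words with any other gene and 7.04% with Fcgr3. Fcgr4 shared 1.06% of its words with other genes, and Fcgr1, Fcer1g and Fcgrt shared 0. Values of Fcgr3 and Fcgr2b can therefore carry an error of read assignment, and their sum is given beside them. The library kit named in the labels does not mark strand. An antisense gene overlapped 2.68% of the exon bases of Fcgr2b, and no other member shared exon bases with an annotated neighbor.

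The promoters of the 3 activating receptors are shown because they hold a match to GAGGAA, the core letters bound by PU.1, the product of Spi1. RefSeq promoter sequences (GRCm38, 250 bases before to 50 after a start) were matched for 6 of 6 members. GAGGAA, searched on both strands, occurred at Fcgr1, Fcgr3 and Fcgr4 and at 28.3% of 32851 promoters. The windows are chr3:96293990-96294139 on the minus strand for Fcgr1, chr1:171059395-171059494 on the minus strand for Fcgr3 and chr1:171018826-171018925 on the plus strand for Fcgr4. Capitals mark the matches, which are read from the opposite strand.
Fcgr1: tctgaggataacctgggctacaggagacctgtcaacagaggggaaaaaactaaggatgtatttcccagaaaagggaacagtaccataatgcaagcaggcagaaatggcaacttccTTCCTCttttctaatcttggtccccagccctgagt
Fcgr3: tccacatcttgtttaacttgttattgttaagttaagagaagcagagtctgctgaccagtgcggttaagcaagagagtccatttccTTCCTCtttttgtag
Fcgr4: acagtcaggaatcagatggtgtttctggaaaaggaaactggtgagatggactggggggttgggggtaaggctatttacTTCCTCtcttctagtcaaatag
A match describes these letters and is not evidence of binding.

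Library depth was similar, from 12688968 to 15659847 reads recovered from the table, and each member had between 1330 and 12778 reads per library. Counting error was therefore at most 2.74% of a member's value, whereas the spread between replicates was 3.62% to 26.4% in Control and 5.07% to 12.5% in Cripto KO. Control libraries 1 and 2 stood apart from the rest. Control replicate 1 had an Xist value of 171, against 0.114 to 0.885 in the other 5 libraries. Its Y-linked genes were near 0, with Ddx3y at 0.184 against 49.1 to 62.3 and Eif2s3y at 0.0368 against 53.7 to 64.1, so its values go against the label male. Control replicate 2 had a Lyz2 value of 11066, against 21.2 to 28.3 in the other libraries of both groups. Lyz2 encodes lysozyme M (LysM), after which LysMCre is named. Whether the 3 Control libraries share the same Cre genotype was not tested. Control replicate 1 also held the highest value of 6 of 6 members, while it was the highest library for 21.3% of all genes and for 31.8% of the 1666 genes with a mean value of at least 100. The difference of each member is therefore also given without it. Without Control replicate 2 the log2(Control/Cripto KO) of the members ran from 0.11 for Fcer1g to 0.29 for Fcgr3.

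Of 11 macrophage marker genes 11 were measured, Lyz2 with the values above, and the growth factor receptor gene Csf1r was between 1566 and 1815 in every library. Markers of other cells that carry Fc receptors differed in level. Of the B cell genes, Cd79a had at most 2 reads in any library, whereas Ighm reached 105, Cd22 96.8 and Cd79b 10.9, and the 6 of 11 measured summed to 165 to 209 in Control and 167 to 198 in Cripto KO. Klrk1 was the only gene measured of 15 NK and T cell markers, at no more than 1.95. Fcer1a, the IgE-binding chain of mast cells, was not analysed here, and the 2 of 10 mast cell and basophil markers measured summed to at most 3.17. The neutrophil genes S100a9, Ngp, Camp and Retnlg had at most 3 reads in any library. Summed neutrophil markers (12 of 14 measured) ranged from 122 to 138 in Control and from 147 to 151 in Cripto KO. Csf3r made up most of this sum in every library, with means of 99.6 in Control and 94.4 in Cripto KO and overlapping groups. The higher sums in Cripto KO came from Mmp9 and do not show a rise shared by the neutrophil genes. The neutrophil marker Mmp9, a gelatinase that macrophages also make, was 15.2 to 22.4 in Control and 39.3 to 45.6 in Cripto KO. It was lower in Control by limma (log2 of -1.10, adjusted p = 0.0313), with an adjusted p between 1.3e-09 and 0.296 over the alternatives. Muscle markers (11 of 15 measured) summed to 38.6 to 82.9 in Control and 20.4 to 60.7 in Cripto KO, with the muscle genes Ckm (14.1) and Myh4 (18.1) highest in Control replicate 1. Of these muscle genes 5 were higher and 1 lower in Control at an unadjusted p under 0.05, against 4.6% and 3.99% of all genes. Their median log2 difference was 0.98. Fibroblast markers (12 of 12 measured) summed to 532 to 558 in Control and 627 to 680 in Cripto KO, and 6 of them were lower in Control at an unadjusted p under 0.05, as were 3.99% of all genes. The summed Ly6C high monocyte (7 of 7 measured), dendritic (8 of 10) and endothelial (12 of 12) markers were 87.7 to 117, 51.1 to 53.4 and 72.6 to 84.3 in Control, and 98.6 to 113, 44.7 to 48.7 and 77.2 to 85.5 in Cripto KO. The part of these RNAs in the Fc receptor values was not tested. In bulk samples, fewer cells of a type and less RNA per cell cannot be told apart.

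Levels of the receptors can be compared with each other only per length. Per kilobase of the principal transcript, the γ chain Fcer1g had the highest level, with a mean of 1280 over 6 libraries (range 1204 to 1349), followed by Fcgr3 at 429 (360 to 511). Fcgrt came next at 205 (171 to 242), then Fcgr2b at 172 (156 to 215), Fcgr4 at 96.9 (84.1 to 134) and Fcgr1 at 90.4 (80.6 to 109). Neighbors in this order were separated in range from Fcer1g to Fcgrt and from Fcgr2b to Fcgr4. The ranges of Fcgrt and Fcgr2b overlapped, as did those of Fcgr4 and Fcgr1, although Fcgrt was higher than Fcgr2b in 6 of 6 libraries and Fcgr4 higher than Fcgr1 in 5 of 6. The annotated coding transcripts of Fcgr2b run from 1084 to 3544 bases, those of Fcgr3 from 547 to 1347 and those of Fcgrt from 127 to 1770. With the shortest of each, the mean level would be 563 per kilobase for Fcgr2b, 1056 for Fcgr3 and 2859 for Fcgrt, so the places of these 3 genes, and the first place of Fcer1g, depend on the transcript chosen.

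Among the activating receptors, Fcgr1 had normalized values of 283, 229 and 219 (reads per 1000000 of scaled library size) in Control and of 236, 209 and 228 in Cripto KO. The groups overlapped, and the highest library was Control replicate 1. The means were 244 ± 34.8 and 224 ± 14.3 (SD, n = 3 in each group here and below), for a log2(Control/Cripto KO) of 0.11 (SE 0.10, 95% interval -0.12 to 0.34, limma adjusted p = 0.80). Without Control replicate 1 the difference was -0.0037.

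Fcgr3, which signals through the γ chain when immune complexes bind, had values of 688, 599.9 and 597 in Control and of 485, 543 and 554 in Cripto KO. Every Control library lay above every Cripto KO library. No overlap of this kind was seen for 1 of 6 members (16.7%) and for 14.5% of all genes, with all Control values above for 8.02% and below for 6.43%. Among genes with a mean of at least 100, all Control values lay above for 14.4%. The means were 629 ± 51.9 and 527 ± 37.1, a log2 difference of 0.25 (SE 0.08, 95% interval 0.06 to 0.44). The adjusted p by limma was 0.494. An unadjusted p under 0.05 was reached by 1 of 6 members and by 8.59% of all genes, 4.6% being higher and 3.99% lower in Control. For Fcgr3 the unadjusted p stayed under 0.05 in 16 of 17 alternatives, the exception being the fit without Cripto KO replicate 1, its lowest library, while the adjusted p ranged from 0.400 to 0.833. Without Control replicate 1 the difference was 0.19.

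Fcgr4 had values of 168, 109 and 109 in Control and of 121, 106 and 118 in Cripto KO. Control replicate 1 lay above all other libraries, and the other Control values fell inside the Cripto KO range. The means were 129 ± 34.0 and 115 ± 8.03, with a log2 difference of 0.14 (SE 0.15, 95% interval -0.21 to 0.49, limma adjusted p = 0.841). This was the widest interval of the 6, and without Control replicate 1 the difference was -0.07.

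**Figure D1:**
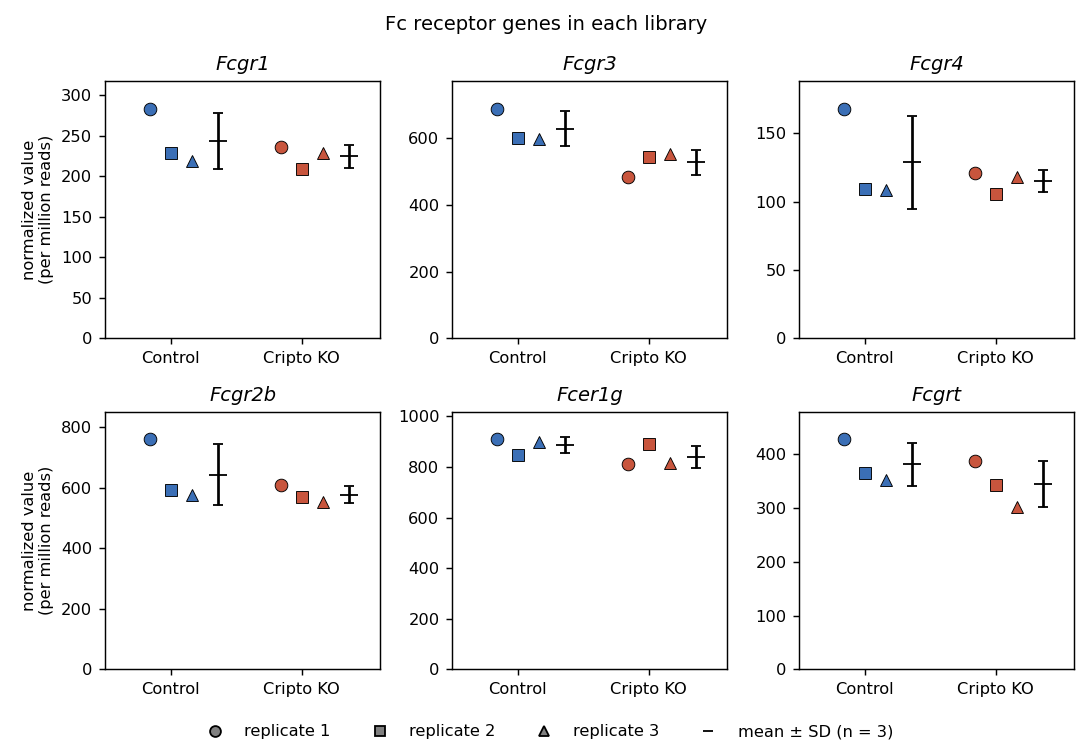
Normalized value (reads per 1000000, vertical axes from 0) of each Fc receptor gene in every library, by group, with the mean and SD of 3 libraries beside the points. Circles, squares and triangles are replicates 1, 2 and 3. The Control circle is the highest point in all 6 panels, and the groups are separate for Fcgr3 only.

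The inhibitory receptor Fcgr2b had values of 760.2, 594 and 577 in Control and of 610.4, 568 and 554 in Cripto KO. Apart from Control replicate 1, the libraries of both groups lay within 554 to 610.4. The means were 644 ± 101 and 578 ± 29.3, a log2 difference of 0.15 (SE 0.11, 95% interval -0.09 to 0.39, limma adjusted p = 0.741), which was 0.02 without Control replicate 1. Summed with Fcgr3, which removes the question of which of the pair a read came from, the values were 1449, 1194 and 1174 in Control, against 1095, 1111 and 1108 in Cripto KO. The summed values of the groups did not overlap, as was so for Fcgr3 alone and for 14.5% of all genes. The sum does not remove reads shared with genes outside the pair.

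Fcer1g, the shared γ chain, had values of 909, 849 and 899.8 in Control and of 811, 892 and 817 in Cripto KO. The groups overlapped, and the spread was the smallest of the members in Control. The means were 886 ± 32.1 and 839.9 ± 45.0, a log2 difference of 0.08 (SE 0.07, 95% interval -0.08 to 0.24, limma adjusted p = 0.798), and it was 0.06 without Control replicate 1.

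Fcgrt, the FcRn heavy chain, had values of 428, 365 and 352 in Control and of 388, 344 and 302 in Cripto KO. The groups overlapped, with the highest value in Control replicate 1 and the lowest in Cripto KO replicate 3. The means were 382 ± 40.5 and 345 ± 43.1, a log2 difference of 0.15 (SE 0.11, 95% interval -0.09 to 0.39, limma adjusted p = 0.732), and it was 0.06 without Control replicate 1. Its unadjusted p was under 0.05 in 1 of 17 alternatives, the fit without Cripto KO replicate 1.

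All 6 members had a log2 difference above 0, with a median of 0.14. The median of all genes was 0.01, and 52.6% of them were above 0. Genes as abundant as the members leaned the same way, since 70.4% of the 1666 genes with a mean of at least 100 had a difference above 0, with a median of 0.05. Quantile normalization brought that share to 52.8% and the members' differences to between 0.05 and 0.19, all above 0. Without Control replicate 1, 4 of 6 members were above 0, as were 52.0% of all genes and 67.4% of the abundant ones.

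**Figure D2:**
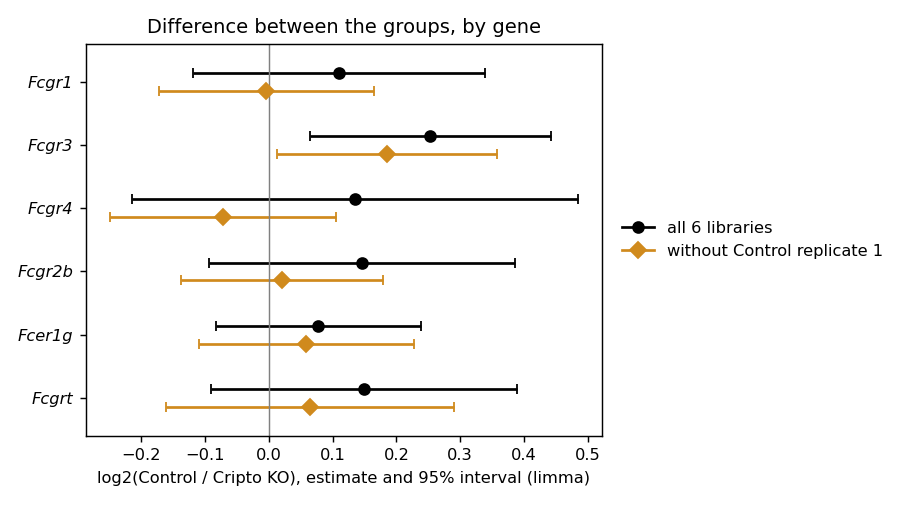
Difference between the groups for each Fc receptor gene as log2(Control/Cripto KO) on the horizontal axis, with the limma estimate and 95% interval from all 6 libraries (black circles) and without Control replicate 1 (orange diamonds). Values right of 0 are higher in Control. The interval of Fcgr3 lies above 0 in both fits, and the estimates of Fcgr1 and Fcgr4 move to or below 0 without that library.

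Ratios within a library do not depend on how libraries were scaled, and no test was made of them. The values were not divided by transcript length, so a ratio compares libraries and not the levels of its 2 genes. The ratio of activating Fcgr3 to inhibitory Fcgr2b, the pair open to error of read assignment, was 0.906, 1.0103 and 1.0352 in Control. In Cripto KO it was 0.794, 0.955 and 0.9996, with overlapping groups. For Fcgr1 over Fcgr2b the ratios were 0.373, 0.385 and 0.379 in Control, against 0.387, 0.367 and 0.412 in Cripto KO. For Fcgr4 over Fcgr2b they were 0.221, 0.184 and 0.188 in Control, against 0.198, 0.186 and 0.213 in Cripto KO. The 3 activating receptors summed over Fcgr2b ranged from 1.499 to 1.602 in Control and from 1.38 to 1.62 in Cripto KO. None of these ratios separated the groups. The ratio of Fcer1g to Tyrobp, the gene of the other main ITAM adaptor DAP12, also overlapped, at 0.774 to 0.877 in Control and 0.764 to 0.832 in Cripto KO.

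**Figure D3:**
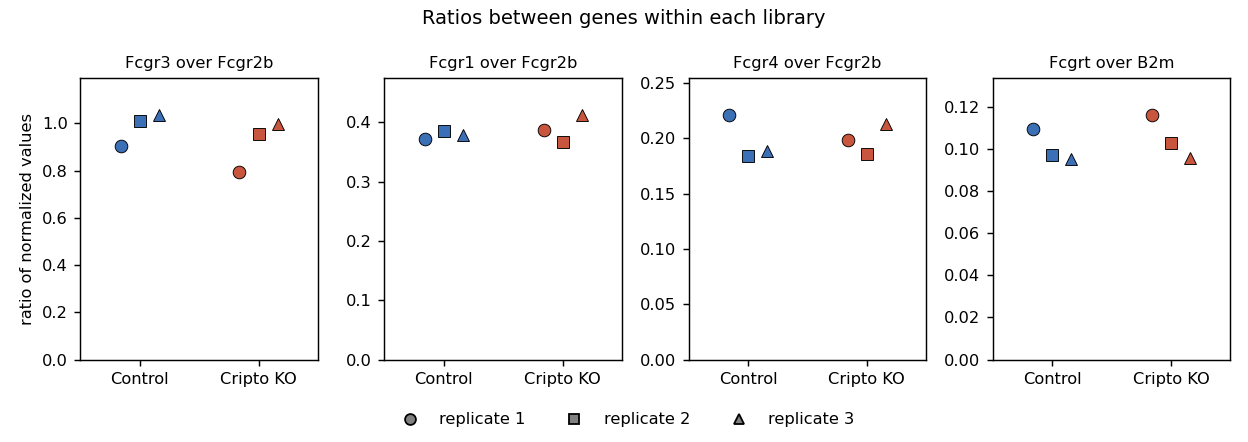
Ratio of normalized values between genes within each library (vertical axes from 0), by group, for Fcgr3, Fcgr1 and Fcgr4 over Fcgr2b and for Fcgrt over B2m. Values were not divided by transcript length. Symbols are replicates 1, 2 and 3. The groups overlap in all 4 panels.

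The members varied together to different degrees over the 6 libraries. The Pearson correlation of log2 values was 0.97 between Fcgr1 and Fcgr4, 0.94 between Fcgr1 and Fcgr2b and 0.94 between Fcgr2b and Fcgr4. Fcgr3 correlated with these 3 genes at 0.59 to 0.65, and Fcer1g with Fcgr1 at 0.17. These values describe 6 points that share Control replicate 1 as the highest. Of 7730 genes with a mean value of at least 10, those most like each member were H2-Q7 (0.985) and Zmynd15 (0.984) for Fcgr1, Rapgef2 (0.994) and Atxn1 (0.992) for Fcgr3, and Rab33b (0.991) and Zmynd15 (0.988) for Fcgr4. For Fcgr2b the closest was Dleu2 (0.994). For Fcer1g they were Amz1 (0.988) and Cnppd1 (0.986), and for Fcgrt Urgcp (0.973) and Glrx (0.973). All 11 genes selected in this way were highest in Control replicate 1, and with 6 libraries between 9 and 62 genes correlated above 0.95 with a member.

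Genes around and downstream of the receptors were described by 8 lists, of which 123 of 141 genes were measured. In limma, 0 of the 123 had an adjusted p under 0.05. At an unadjusted p under 0.05, 12 were higher and 4 lower in Control, 13.0% against 8.59% of all genes and 13.2% of genes with a mean of at least 100. By direction, 4.6% of all genes and 9.6% of these abundant genes were higher in Control. Lower in Control were 3.99% and 3.6%. Quantile normalization gave 6 higher and 8 lower, and leaving out Control replicate 1 gave 6 higher and 6 lower. The median log2 difference was 0.06, against 0.05 for genes with a mean of at least 100, and -0.00056 after quantile normalization. Of the 123, 43 (34.96%) were highest in Control replicate 1. The groups did not overlap for 23 of the 123 (18.7%), for 14.5% of all genes and for 18.6% of genes with a mean of at least 100.

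Of 13 other Fc receptor genes 4 were measured. Fcrl1, a receptor-like gene best known from B cells, had values of 5.78, 13.4 and 6.65 in Control and of 18.0, 15.3 and 15.6 in Cripto KO. All Control values lay below the Cripto KO values, with Control replicate 2 nearest to them. The log2 difference was -1.02 (SE 0.28, limma adjusted p = 0.408), and its unadjusted p was under 0.05 in 17 of 17 alternatives. The adjusted p fell under 0.05 in 2 of them, at 0.0366 with DESeq2 and 0.0214 without Control replicate 2. Fcrl1 rested on 78 to 283 reads per library. Of the B cell markers, Cd79a had at most 2 reads in any library, while Ighm was 67.6, 103 and 75.2 in Control, against 105, 92.3 and 81.3 in Cripto KO. The part of B cell RNA in the Fcrl1 values was not tested. The other 3, Fcrlb, Fcrls and Trim21, overlapped between the groups and are named after their values were seen.

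Among chains of the ITAM adaptor family, 2 of 3 were measured, and neither had a p under 0.05. Tyrobp had a log2 difference of 0.07 (SE 0.08). Of 16 listed partners of Fcer1g or of other ITAM adaptors such as Tyrobp, 11 were measured, with a median of -0.09. At an unadjusted p under 0.05, 1 was higher and 2 lower, against 4.6% and 3.99% of all genes. Trem1, an amplifier of inflammatory signals, had values of 10.6, 6.02 and 7.39 in Control and of 3.52, 5.27 and 5.34 in Cripto KO (log2 0.75, limma adjusted p = 0.494). The fungal lectin receptor Clec4n (Dectin-2) had a log2 difference of -0.27 (limma adjusted p = 0.500), without overlap of the groups. Clec5a had one of -0.31 (limma adjusted p = 0.529), with overlap.

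All 32 kinases and scaffolds downstream of the ITAM were measured, 5 being higher and 1 lower at an unadjusted p under 0.05. The shares were 4.6% and 3.99% of all genes, and 9.6% and 3.6% of genes with a mean of at least 100. Without Control replicate 1, only Vav3 of this list was higher and only Src lower at that p. The exchange factor Vav3, which activates Rac during phagocytosis, had values of 36.9, 32.0 and 31.8 in Control and of 27.3, 25.4 and 26.6 in Cripto KO. Its groups did not overlap, and the log2 difference was 0.34 (SE 0.09, limma adjusted p = 0.407), with an unadjusted p under 0.05 in 17 of 17 alternatives. Lcp2, the adaptor SLP-76, had a log2 difference of 0.17 (limma adjusted p = 0.517) and the kinase Src one of -0.46 (limma adjusted p = 0.529). The unadjusted p was under 0.05 in 10 of 17 alternatives for Lcp2 and in 14 of 17 for Src. Syk, the kinase that binds the phosphorylated γ chain, had a log2 difference of 0.09 (SE 0.13).

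In the inhibitory arm 20 of 21 genes were measured, and 1 was higher at an unadjusted p under 0.05, against 4.6% of all genes. It was the CD45 phosphatase gene Ptprc (log2 0.18, limma adjusted p = 0.567), with an unadjusted p under 0.05 in 5 of 17 alternatives. Inpp5d, the SHIP phosphatase recruited by Fcgr2b, had values of 249, 232 and 253 in Control and of 225, 219 and 223 in Cripto KO. The groups did not overlap, with a log2 difference of 0.14 (SE 0.06, limma adjusted p = 0.588). For Inpp5d the unadjusted p was under 0.05 in 1 of 17 alternatives. Ptpn6, the phosphatase SHP-1, had a log2 difference of -0.08 (SE 0.12). Of 25 genes of the phagocytic cup and oxidase, all measured, 1 was higher at an unadjusted p under 0.05, against 4.6% of all genes. The median of that list was 0.06.

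For FcRn, 11 of 13 partner and recycling genes were measured, and 1 was higher at an unadjusted p under 0.05, against 4.6% of all genes. B2m, the light chain that FcRn shares with MHC class I, had values of 3910.5, 3751 and 3694 in Control and of 3344.5, 3335 and 3157 in Cripto KO. Every Control value lay above the Cripto KO values, with a log2 difference of 0.21 (SE 0.08, limma adjusted p = 0.538). The unadjusted p was above 0.05 whichever of the 6 libraries was left out. The ratio of Fcgrt to B2m was 0.109, 0.0972 and 0.0954 in Control, against 0.116, 0.103 and 0.0957 in Cripto KO, with overlap.

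Among regulators of Fc receptor transcription, 18 of 18 were measured and 3 were higher at an unadjusted p under 0.05. The share was 4.6% of all genes and 9.6% of those with a mean of at least 100. Jak1 had a log2 difference of 0.15 (limma adjusted p = 0.537) and Stat6 of 0.14 (limma adjusted p = 0.571). The unadjusted p was under 0.05 in 6 of 17 alternatives for Jak1 and in 3 of 17 for Stat6. Spi1, which encodes PU.1, had a log2 difference of 0.0037 (SE 0.06) and Irf8, a myeloid lineage factor, of 0.02 (SE 0.06).

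**Figure D4:**
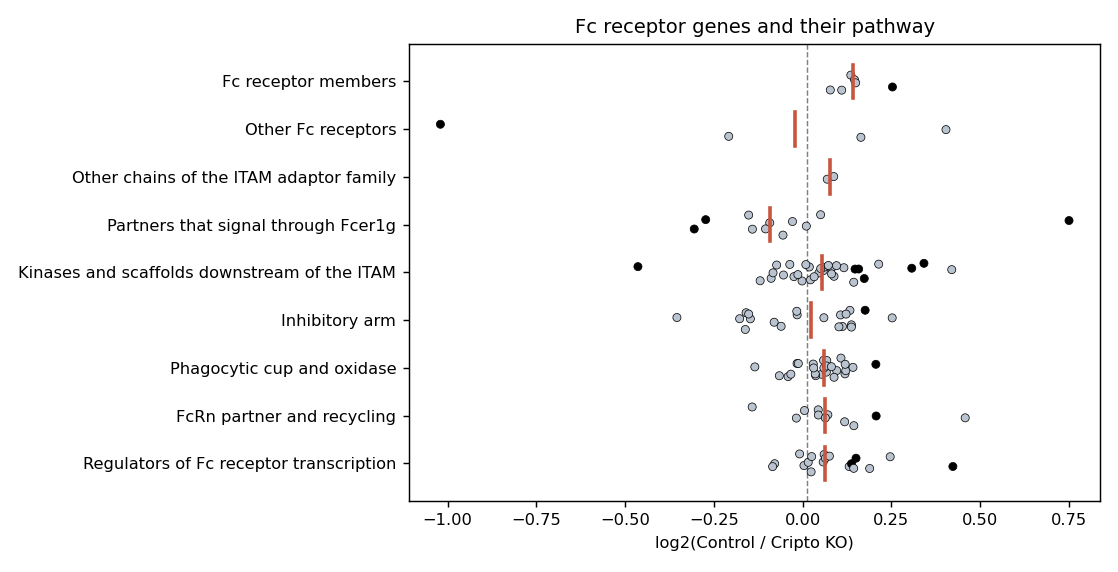
Difference between the groups as log2(Control/Cripto KO) on the horizontal axis for each gene of the Fc receptor set and of 8 pathway lists, 1 point per gene. Black points have an unadjusted limma p under 0.05, red bars are list medians and the dashed line is the median of all genes, 0.01. The Fc receptor genes sit between 0.08 and 0.25, and the point farthest left is Fcrl1. The list labelled as partners of Fcer1g also holds partners of other ITAM adaptors.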

How the data were processed

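RNA-seq was performed on sorted MPs from 3 Control and 3 Cripto KO samples, numbered as in the labels. The study describes them as biological replicates, and whether each came from its own mouse is not given in the sources used here. The limma p-values set the difference between the groups against the spread between these samples, moderated by eBayes over all genes. The deposited table holds normalized signal values per gene. Per the study's methods, the authors trimmed reads with Cutadapt 1.7.1, quantified them against the GRCm38 transcriptome with RSEM 1.2.20 and normalized with limma. Each of 78048 values gave a whole number of reads (tolerance 0.01) as (reads + 0.5) per 1000000 of a scaled library size, which provided depth and the input for count tests. Log2 values, with no pseudocount since no value was 0, were fitted with limma 3.58.1 (lmFit, eBayes with trend, R 4.3.3) on group alone and adjusted over 13008 genes. Calls need an adjusted p under 0.05, two-sided. Alternatives were pseudocounts of 0.5 and 1, a mean of at least 1, median centring, quantile normalization, eBayes without trend or robust, voom, edgeR 4.0.16, DESeq2 1.42.0, the replicate number as a block, and 6 fits with 1 sample omitted, 17 in all. Leaving out samples for the ratios was added after seeing the data. The limma, edgeR and DESeq2 fits were also run on simulated counts with no outlying library and with larger fold changes than those of the members. These runs do not test the differences given here.

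Transcripts, exons and positions are from GENCODE M21 (GRCm38). A symbol with several identifiers was read from the first. The members and gene lists were chosen with earlier results of these data known. Genes named in the text are the members, up to 3 per pathway list with the smallest unadjusted p under 0.05, list genes with an adjusted p under 0.05, the 2 genes most correlated with each member, and a short fixed set (Tyrobp, Syk, Inpp5d, Ptpn6, B2m, Spi1, Irf8, Lyz2, Xist and markers). A few genes that this rule selects are not reported here.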

Additional observations from a re-analysis of the deposited data

How the results depend on the processing

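Each of the 6 members kept an adjusted p above 0.05 under all 17 alternatives, and their direction held except without Control replicate 1, when Fcgr1 was -0.0037 and Fcgr4 was -0.072 on the log2 scale. Leaving out each library in turn gave 0.19 to 0.29 for Fcgr3, -0.0037 to 0.18 for Fcgr1, -0.07 to 0.24 for Fcgr4, 0.02 to 0.22 for Fcgr2b, 0.05 to 0.12 for Fcer1g and 0.06 to 0.24 for Fcgrt. For the ratios within a library the same gave a log2 difference of 0.0074 to 0.17 for Fcgr3 over Fcgr2b, -0.08 to 0.0066 for Fcgr1 over Fcgr2b, -0.09 to 0.04 for Fcgr4 over Fcgr2b and -0.12 to 0.02 for Fcgrt over B2m, the sign of the last 3 turning with the library left out.

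Over all genes 17 were called, against 6 with quantile normalization, 5 without the variance trend, 31 with the robust fit, 9 with voom weights and 74 with DESeq2. Leaving out each library gave 5 to 31, with 31 without Control replicate 1, 7 without Control replicate 3, 10 without Cripto KO replicate 1, 5 without Cripto KO replicate 2 and 7 without Cripto KO replicate 3. Of the 123 pathway genes, 0 were called, and 1 (Fcrl1) with DESeq2 and without Control replicate 2. At an unadjusted p under 0.05 there were 16, against 6 without the variance trend and 7 to 17 when a library was left out, with 7 without Control replicate 3, 10 without Cripto KO replicate 2 and 7 without Cripto KO replicate 3. The causes were not tested.

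Replicate numbers showed no sign of pairing: deviations of samples with the same number correlated at -0.21, -0.0052 and -2.5e-05, and no sample correlated best with its own number. Deviations were taken from the mean of the same group, so these correlations are not independent and cannot exclude pairing. With the replicate block, 2 genes were called, and 10 pathway genes had an unadjusted p under 0.05. Depth was not the limit for the members, each with at least 1330 reads per library, and 3 reads, the level that a count of 0 allows, correspond to 0.222 to 0.286. Intervals for reads cover counting error only.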

Other observations

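In the stretch of chromosome 1 that holds Fcgr2b, Fcgr4, Fcgr3 and Fcer1g (276 kb) and within 500 kb on either side, 29 other genes were measured. Of these, 13 had a log2(Control/Cripto KO) above 0, with a median of -0.0063, while 52.6% of all genes were above 0. Unadjusted limma p-values under 0.05 were found for 3 of them, Cfap126 (log2 0.43), which lies beside Fcgr3, F11r (0.25) and Tma7-ps (-0.48), and adjusted p-values under 0.05 for 0. Of all genes, 8.59% had an unadjusted p under 0.05. These 3 genes are named after their values were seen.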
